A study of Mus musculus with 29 samples.

Results

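The Schlafen genes of the mouse are a family of interferon-inducible genes that lie side by side on 1 chromosome. Here 7 of them, Slfn1, Slfn2, Slfn3, Slfn4, Slfn5, Slfn8 and Slfn9, are described in bulk RNA sequencing of mouse ovaries, out of 51912 gene identifiers in the deposited table. The set was chosen by measured values, because the measured level of Slfn9 is higher in Cdkn1b-null than in wild-type ovaries at embryonic day 18.5 (E18.5), so every value of these genes in that contrast is a description and carries no test. Ovaries were taken from wild-type mice (Cdkn1b +/+) and from homozygous nulls (Cdkn1b -/-) at embryonic day 13.5 (E13.5), E18.5, postnatal day 8 (PND8) and 12 weeks of age (12wk). Cdkn1b encodes p27Kip1, an inhibitor of cyclin-dependent kinases that holds back cell division. Every wild-type group and the E18.5 null group held 4 samples and the remaining null groups held 3, for 29 samples in 8 groups. The ovaries of all groups were dissociated with papain before RNA was taken. The labels name no strain, no Cre driver and no littermates, and they do not say how many animals gave 1 sample, so p-values measure the spread between these samples.

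Schlafen genes are known as targets of type I interferon and were first studied in the growth control of thymocytes and macrophages. The family is usually divided by length: Slfn1 and Slfn2 are short, Slfn3 and Slfn4 are intermediate, and Slfn5, Slfn8 and Slfn9 are long forms that add a helicase-like part. They share a core domain related to RNA-cleaving enzymes, and several members act on transfer RNA. They are best known in immune cells, where type I interferon drives a broad set of antiviral genes.

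All 7 genes lie on chromosome 11 within 263.8 kb (build GRCm38, GENCODE annotation). In order along the chromosome, Slfn5 is at chr11:82951349-82964840 on the forward strand, Slfn9 at chr11:82978390-82991830 and Slfn8 at chr11:83002158-83020810 on the reverse strand. Slfn2 (chr11:83065112-83070678), Slfn1 (chr11:83116849-83122670), Slfn4 (chr11:83175186-83190216) and Slfn3 (chr11:83191330-83215154) follow on the forward strand. The pseudogene Slfn10-ps lies between Slfn8 and Slfn2, and Slfn14 lies beyond Slfn3. The span of the antisense gene Slfn5os overlaps that of Slfn5. Whether their exons overlap was not examined. Strandedness of the libraries is not given in the sources used here, so reads from any shared stretch may not be told apart. On the counts-per-million scale (CPM), the highest level of Slfn5os in any library was 0.577.

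Windows of 250 bases before to 50 bases after each gene's start were taken from RefSeq (GRCm38.p6) and searched on both strands for the interferon-stimulated response element, spelled TTTC, any 2 bases and TTTC, or on the other strand GAAA, any 2 bases and GAAA. The windows of Slfn9 (chr11:82991781-82992080, reverse strand) and Slfn8 (chr11:83020761-83021060, reverse strand) are printed because these neighbours share most of their promoter sequence but differ in level across the ovaries below. Capitals mark the match.

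Slfn9 promoter: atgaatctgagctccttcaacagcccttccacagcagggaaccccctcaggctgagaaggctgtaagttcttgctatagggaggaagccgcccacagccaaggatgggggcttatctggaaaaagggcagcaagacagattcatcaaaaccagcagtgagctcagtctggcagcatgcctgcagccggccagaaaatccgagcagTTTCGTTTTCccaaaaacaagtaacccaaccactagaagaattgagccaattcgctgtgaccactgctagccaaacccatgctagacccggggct

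Slfn8 promoter: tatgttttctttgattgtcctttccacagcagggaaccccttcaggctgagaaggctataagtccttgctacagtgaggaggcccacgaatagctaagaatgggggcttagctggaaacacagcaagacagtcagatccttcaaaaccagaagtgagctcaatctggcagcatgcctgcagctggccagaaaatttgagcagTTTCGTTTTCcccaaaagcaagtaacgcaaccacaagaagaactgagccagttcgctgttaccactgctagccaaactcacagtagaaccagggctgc

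The match reads TTTCGTTTTC in both windows and begins 45 bases before the start of Slfn9 and 48 bases before the start of Slfn8. Of 292 aligned bases in these windows, 248 were identical (84.9%), while the other pairs that include Slfn8 or Slfn9 had 56.2% to 65.0% identity. Slfn5 held a match on the opposite strand, GAAAAAGAAA, whose first base lay 155 bases before the start. No match was found in the windows of Slfn1, Slfn2, Slfn3 and Slfn4, which says only that these letters are not in these windows. The element was found in 3.44% of all 32851 promoter windows, and by gene in 3 of 7 Schlafen genes, 19 of 42 genes of the interferon response list described below that had a window, and 3.99% of all 27025 genes. The other interferon motif searched, the gamma-activated site TTCNNNGAA, was in 8.3% of windows and in none of the Schlafen windows, so no matches overlapped.

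Near-identical stretches affect how reads were assigned. The deposited values are estimated counts, in which a read that fits several genes is divided among them. Slfn9 and Slfn8 had a value that was not a whole number in all 29 libraries, as did Slfn10-ps, while Slfn1 and Slfn14 had none. The shares of non-zero values that were not whole were 34.5% for Slfn2, 41.4% for Slfn5, 82.8% for Slfn3 and 88.9% for Slfn4. Of the distinct 50-base stretches in Slfn9 transcripts, 6.52% also occur in Slfn8 and 8.1% in Slfn10-ps. At 100 bases, 3.71% of Slfn9 and 3.38% of Slfn8 stretches occur in another Schlafen transcript. The longest run shared by Slfn8 and Slfn9 was 139 bases, and it lies at bases 2790 to 2928 of a full-length Slfn9 transcript, inside the coding part. Slfn3 and Slfn4 share 7.39% of the 50-base stretches of Slfn3, and 4.27% of those of Slfn2 occur in Slfn4. Slfn5 shares none with the other Schlafen genes, but 3.37% of its 50-base stretches occur in 343 genes outside the family. For Slfn3 9.77% occur in 55 genes outside the family, and at 100 bases 2.92% occur in 3 such genes. The levels of Slfn8, Slfn10-ps, Slfn3, Slfn4 and Slfn5 are therefore uncertain where the division of reads matters. Values with the counts of near-identical Schlafen genes summed are given with the results for Slfn9, Slfn8 and Slfn4.

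**Figure D1:**
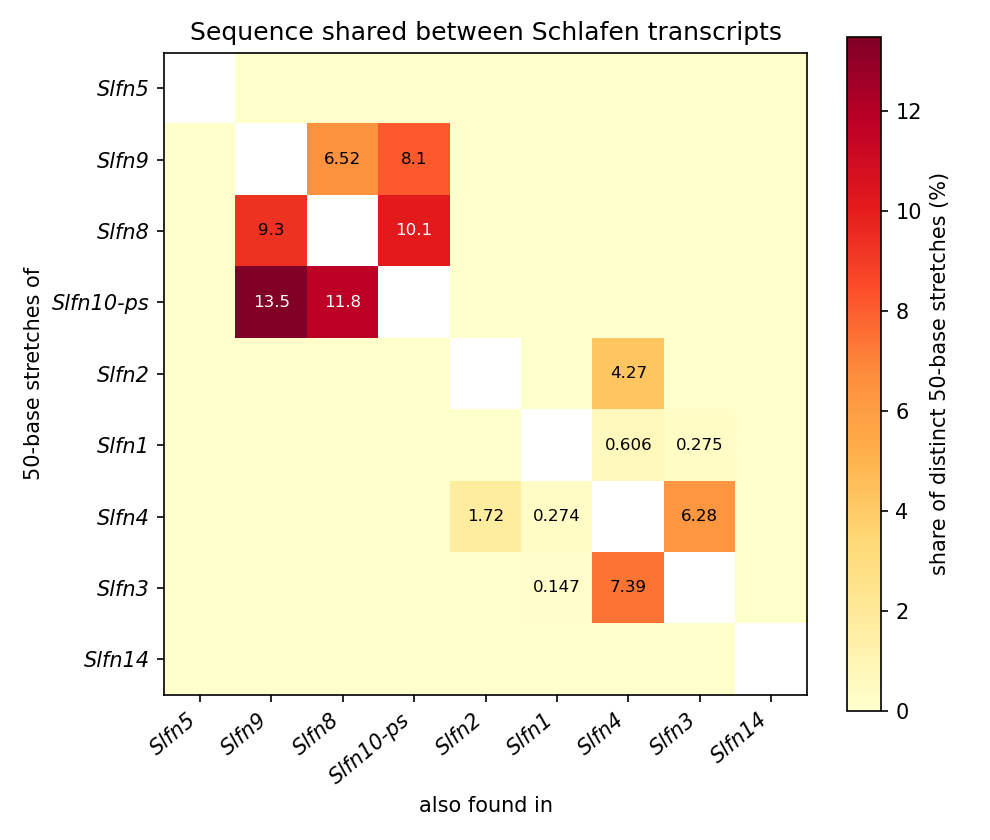
Share (%) of the distinct 50-base stretches in the transcripts of each gene (vertical axis) that also occur in another gene (horizontal axis), for the 7 Schlafen genes, Slfn10-ps and Slfn14. Slfn9, Slfn8 and Slfn10-ps form a block with 6.52% to 13.5% shared, Slfn3 and Slfn4 share 6.28% to 7.39%, and empty pale cells are 0.

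Levels are given in CPM, scaled by the trimmed mean of M values (TMM) over the 29 samples, and in CPM per kilobase of exon where genes are compared with each other. Library totals ran from 14095553 to 48213126 counts. The targeted gene, Cdkn1b, was lower in every null library than in every wild-type library of its age, but its reads were not absent from nulls. It ranged over 19.1 to 26.1 CPM in wild-type and 4.29 to 4.75 CPM in null ovaries at E13.5, 95.2 to 122.7 and 9.44 to 15.6 CPM at E18.5, 133 to 173 and 65.0 to 79.8 CPM at PND8, and 124 to 264 and 42.1 to 56.2 CPM at 12wk. The null level was thus 0.192 of the wild-type level at E13.5, 0.12 at E18.5 and 0.479 at PND8 (edgeR adjusted p = 0.0114, 1.12e-05 and 0.0216). At 12wk it was 0.277 of the wild-type level, but the edgeR adjusted p was 0.211. The 12wk genotype test thus did not call the targeted gene itself, which limits what an uncalled gene means at that age. The sources used here do not say which part of the gene the null allele lacks. Granulosa-lineage genes, which define the supporting cells of the follicle, summed to 83.1 to 513 CPM in embryonic libraries and 1800 to 4680 CPM later. Germ-cell genes summed to 209 to 964 CPM in embryonic libraries, 66.1 to 391 at PND8 and 3.68 to 55.6 at 12wk. Libraries also differed in blood content: haemoglobin genes took 19% of counts in replicate 3 of E13.5 wild type, against 0.702% to 1.05% in the other samples of that group. In whole dissociated ovaries, fewer cells of a type and less RNA per cell cannot be told apart.

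Slfn9 is one of the long Schlafen genes. Among the 7 it had the highest mean level per kilobase in every group. It was present in every library, from an estimated 191.82 to 4731.41 reads. At E13.5 the wild-type samples had 20.7, 19.55, 17.4 and 23.3 CPM, and the null samples 26.7, 22.5 and 23.0 CPM. These groups overlap. The means were 20.2 ± 2.44 CPM (SD, n = 4) and 24.1 ± 2.3 CPM (n = 3), a log2 fold change of 0.22 ± 0.159 (standard error) with an edgeR adjusted p of 0.988.

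At E18.5, the contrast that chose the set, wild-type ovaries had 17.3, 10.95, 9.26 and 10.2 CPM of Slfn9, and null ovaries had 41.9, 43.4, 53.6 and 49.3 CPM. Every null library lay above every wild-type library. The means were 11.9 ± 3.66 and 47.0 ± 5.41 CPM (SD, n = 4 each), a 3.92-fold difference or 1.97 on the log2 scale. With the counts of Slfn8 added to those of Slfn9 the log2 difference was 1.91. With those of Slfn10-ps added, a sum chosen after seeing the data, it was 1.95. Mean counts were 246.8 and 1014 for Slfn9, 12.56 and 10.86 for Slfn8, and 11.64 and 35.35 for Slfn10-ps, wild type and null. These sums could thus move little from Slfn9 alone. Across the E18.5 wild-type samples, replicate 1 was highest for both Slfn9 and Slfn8. From E13.5 to E18.5 the mean of Slfn9 went from 20.2 to 11.9 CPM in wild type and from 24.1 to 47.0 CPM in nulls. These steps rest on the samples that chose the set and have no test.

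At PND8 Slfn9 reached its highest levels in both genotypes. Wild-type ovaries had 64.7, 65.0, 89.1 and 64.6 CPM, and null ovaries 109, 88.2 and 94.5 CPM. Replicate 3 of the wild type lay above the lowest null sample, and the other 3 wild-type samples lay below all nulls. The means were 70.9 ± 12.2 CPM (SD, n = 4) and 97.3 ± 10.8 CPM (n = 3), and the log2 fold change of 0.44 ± 0.122 did not pass the edgeR test (adjusted p = 0.158). DESeq2 called this difference with an adjusted p of 0.0287, at an age where it called 824 genes and edgeR 62. With Slfn8 added, the genotype difference at the 3 tested ages, youngest first, was 0.21, 0.45 and 0.23 on the log2 scale (edgeR adjusted p = 0.989, 0.153 and 0.747). With Slfn10-ps added it was 0.22, 0.45 and 0.22 (edgeR adjusted p = 0.988, 0.157 and 0.767). These sums consisted mostly of Slfn9 reads, so they could differ little from Slfn9 alone. Without wild-type replicate 3 the log2 fold change of Slfn9 at PND8 was 0.57 with an edgeR adjusted p of 0.0323. It was not called in the other 6 fits that left out 1 library, with edgeR adjusted p up to 0.356.

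At 12wk wild-type ovaries had 28.9, 35.5, 55.8 and 41 CPM of Slfn9, and null ovaries 46.3, 47.3 and 48.6 CPM. The null values sit inside the range of the wild type. The log2 fold change was 0.24 ± 0.199, with an edgeR adjusted p of 0.758. The null mean was thus above the wild-type mean at all 3 ages that did not choose the set, but none of these differences passed the edgeR test. The test of whether the genotype difference varies among these 3 ages gave an edgeR adjusted p of 0.909 for Slfn9.

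Slfn9 changed with age in both genotypes. From E13.5 to PND8 it rose 3.35-fold in wild type (log2 1.74 ± 0.135, edgeR adjusted p = 3.49e-06) and 3.86-fold in nulls (log2 1.95 ± 0.131, adjusted p = 7.89e-06). The groups did not overlap in either genotype. From PND8 to 12wk it fell by 0.74 on the log2 scale in wild type (standard error 0.195, edgeR adjusted p = 0.0201) and by 0.95 in nulls (standard error 0.098, adjusted p = 0.00141). The wild-type fall had an adjusted p of 0.0517 without PND8 replicate 3 and of 0.0409 with Slfn8 added. Ordered by mean, the groups ran from E18.5 wild type through E13.5 wild type, E13.5 null, 12wk wild type, E18.5 null, 12wk null and PND8 wild type to PND8 null. Neighbours in that order whose samples overlap were the E13.5 genotypes, 12wk wild type with E18.5 null, E18.5 null with 12wk null, and the PND8 genotypes. E18.5 wild type and E13.5 wild type nearly met, at 17.3 and 17.4 CPM.

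**Figure D2:**
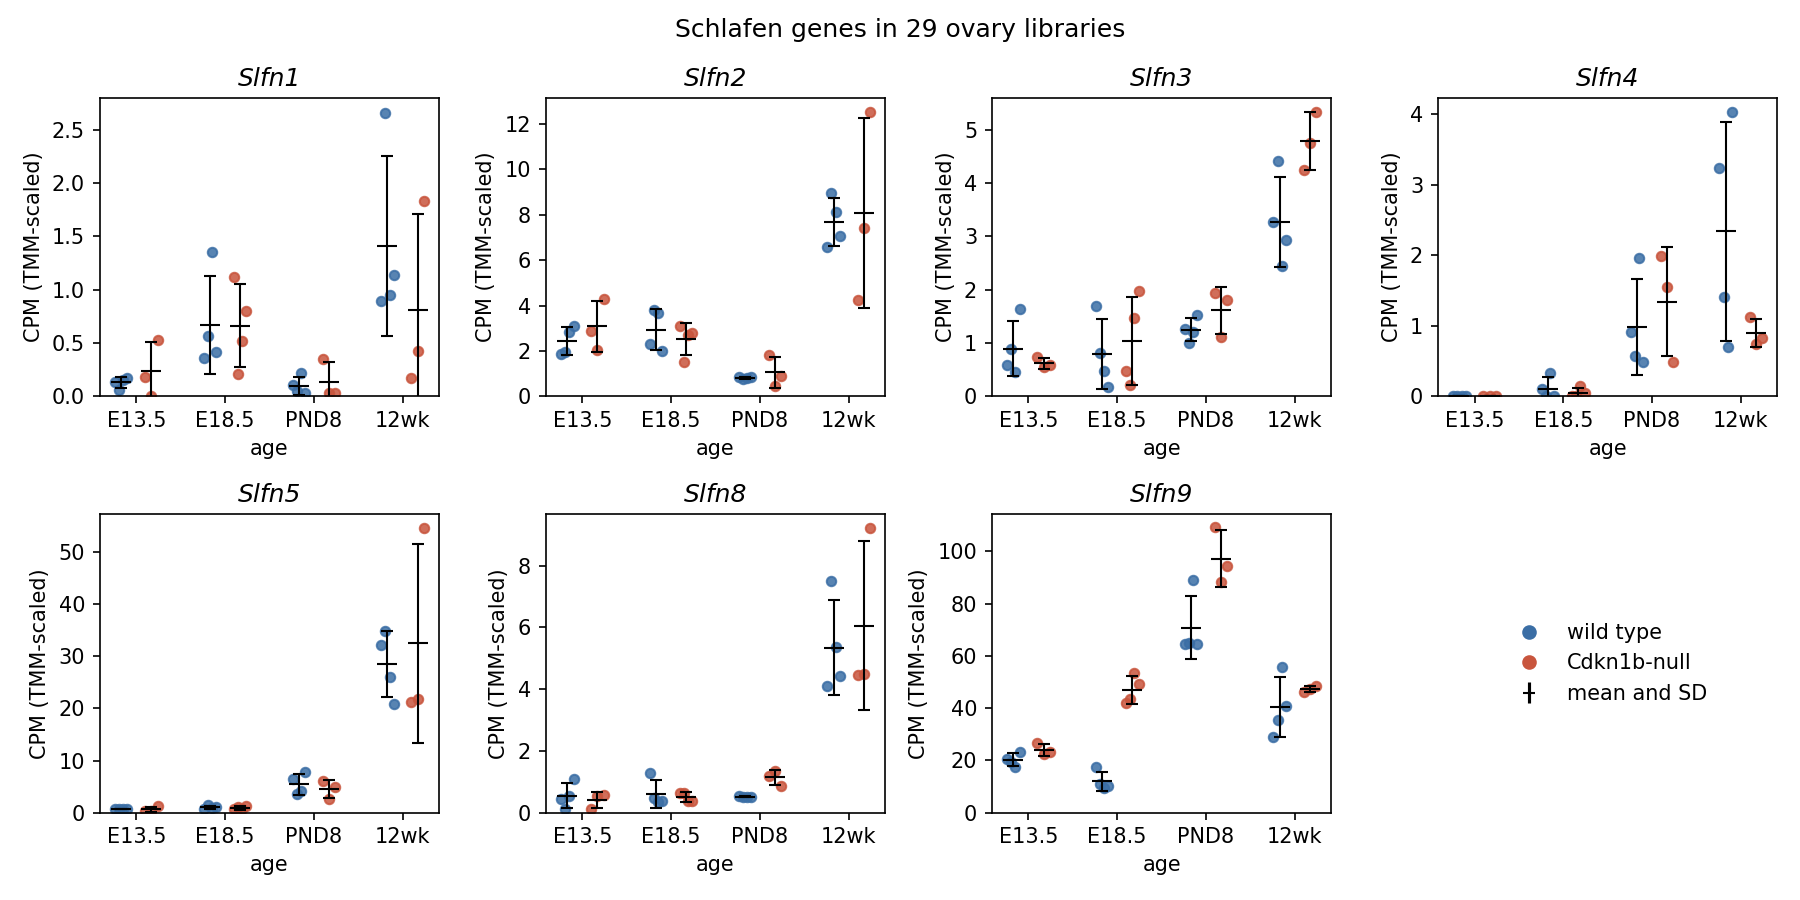
CPM (TMM-scaled, vertical axes from 0, 1 scale per gene) of the 7 Schlafen genes at 4 ages; each point is 1 library, blue for wild type and red for Cdkn1b-null, with bars for mean and SD. Slfn9 peaks at PND8 and its E18.5 null libraries (41.9 to 53.6 CPM) stand above the E18.5 wild-type libraries (9.26 to 17.3 CPM), while Slfn2, Slfn3, Slfn5 and Slfn8 are highest at 12wk in both genotypes.

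The genes whose levels followed Slfn9 most closely over the 29 libraries, among 15449 genes with a mean of at least 1 CPM, were Cep128 (Pearson r = 0.95), Prr11 (0.935), Rnf168 (0.928), Brip1os (0.913) and Ipo7 (0.911). Cep128 encodes a centriolar protein, Rnf168 a ubiquitin ligase of the DNA damage response and Ipo7 a nuclear import receptor. These libraries share ages and genotypes, so the correlations describe the pattern and carry no p. A list of 6 dividing-cell genes (Mki67, Top2a, Cdc20, Ccnb1, Birc5 and Plk1) moved with Slfn9 in part. Its summed level was 358 to 536 CPM in E18.5 wild type and 888 to 1220 CPM in E18.5 nulls, the samples that chose the set. Of its 6 genes, 5 were called higher in those nulls, where 4.99% of all genes were called in either direction. Among them were Top2a (134 to 353 CPM, edgeR adjusted p = 0.000955) and Cdc20 (41.5 to 125 CPM, adjusted p = 4.56e-05). The sums were 1360 to 1790 and 1640 to 2010 CPM at PND8, and 607 to 1140 and 718 to 899 CPM at 12wk, wild type and null respectively. At E13.5, where Slfn9 was at 17.4 to 26.7 CPM, the sums were 1180 to 1330 and 1190 to 1330 CPM, above those of the E18.5 wild type with 9.26 to 17.3 CPM of Slfn9. From E13.5 to PND8, where Slfn9 rose, 4 of the 6 genes were called lower and 2 higher in both genotypes. Of all genes, 36.3% were called lower and 37.7% higher in wild type, and 34.5% and 36.7% in nulls. In wild type Mki67 went from 88.6 to 639 CPM and Ccnb1 from 389 to 91.8 CPM, a split that the sum hides. From PND8 to 12wk, where Slfn9 fell, 5 of 6 were called lower in wild type and 6 of 6 in nulls (14.3% of all genes in each). The wild-type library with the most Slfn9 was also the one with the highest sum at each of the 4 ages. In nulls this held at E18.5 and PND8, while at E13.5 and 12wk the library with the most Slfn9 had the lowest sum. The part of dividing cells in the Slfn9 levels was not tested.

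**Figure D3:**
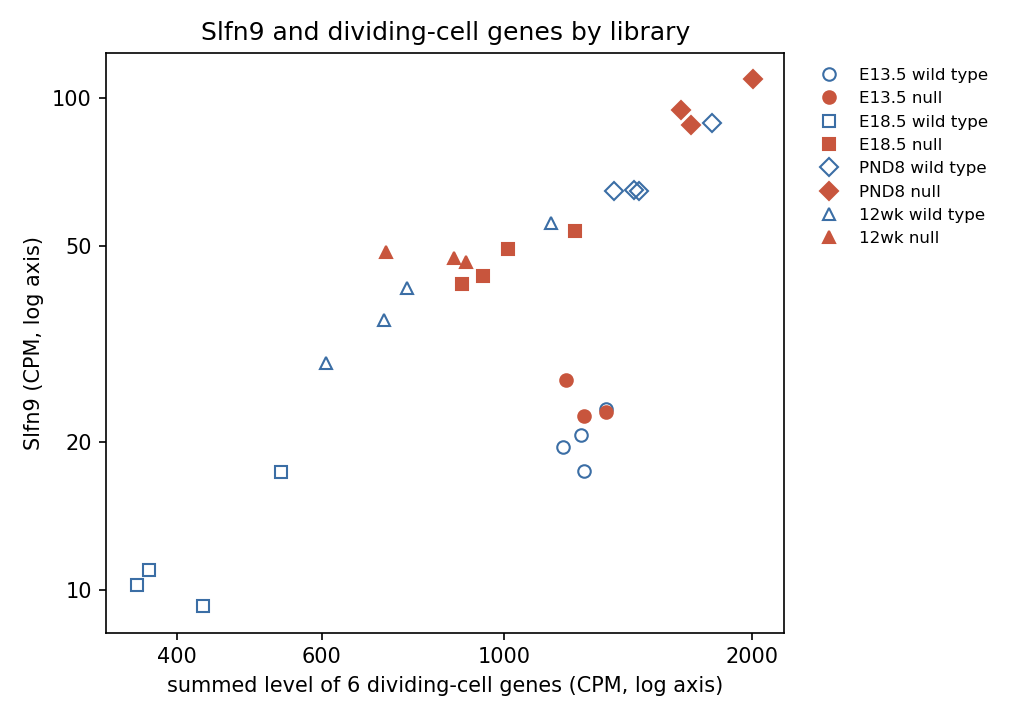
Slfn9 (CPM, log axis) against the summed level of 6 dividing-cell genes (CPM, log axis); each point is 1 of 29 libraries, open blue for wild type and filled red for null, with the age by symbol. E18.5, PND8 and 12wk libraries lie along 1 band, and the 7 E13.5 libraries lie below it, with sums of 1180 to 1330 CPM and Slfn9 at 17.4 to 26.7 CPM.

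Slfn8, the long form next to Slfn9, had a different course. It stayed low until PND8 and rose in adult ovaries. In wild type it had 0.543, 0.514, 0.512 and 0.509 CPM at PND8 and 4.1, 7.5, 5.35 and 4.44 CPM at 12wk, a 10.7-fold rise (log2 3.43 ± 0.259, edgeR adjusted p = 7.69e-05). In nulls it had 1.20, 1.35 and 0.867 CPM at PND8 and 4.46, 4.49 and 9.21 CPM at 12wk, a 5.68-fold rise (log2 2.51 ± 0.415, adjusted p = 0.00563). Neither pair of groups overlapped. From E13.5 to PND8 the log2 change was -0.16 ± 0.533 in wild type (edgeR adjusted p = 0.793) and 1.35 ± 0.561 in nulls (adjusted p = 0.0609).

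At PND8 every null sample had more Slfn8 than every wild-type sample, with means of 0.52 ± 0.0159 and 1.14 ± 0.247 CPM (SD, n = 4 and 3). The 2.17-fold difference did not pass the test (edgeR adjusted p = 0.149), and 7.88% of all genes tested at PND8 were separated in the same direction. The mean estimated count behind it was 18.26 in wild type and 41.97 in nulls, so it rests on few reads that Slfn9 could share. Slfn9 had mean counts of 2507 and 3559 there. The sum of both genes (edgeR adjusted p = 0.153) is therefore nearly all Slfn9 and cannot speak to the Slfn8 difference. At E13.5 the genotypes differed by -0.43 ± 0.774 on the log2 scale and at 12wk by 0.2 ± 0.353, with edgeR adjusted p of 0.988 and 0.9. At E18.5 Slfn8 had too few reads to enter the fit, with 1.29, 0.461, 0.338 and 0.376 CPM in wild type and 0.64, 0.627, 0.378 and 0.377 CPM in nulls.

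The pseudogene Slfn10-ps, which shares 13.5% of its 50-base stretches with Slfn9, is no member of the set. At E18.5 it had 0.619, 0.307, 1.21 and 0.125 CPM in wild type and 1.28, 2.2, 1.42 and 1.79 CPM in nulls. These groups did not overlap, and the log2 fold change of 1.55 ± 0.546 had an edgeR adjusted p of 0.129. Slfn14, a ribosome-cleaving Schlafen protein known from platelets and red cells, was most variable in the embryo. It stood at 16.5 CPM in the E13.5 wild-type library with 19% haemoglobin and at 0.41 to 1.01 CPM in its group's remaining libraries. Its highest level, 20.15 CPM, was in E18.5 wild-type replicate 3 with 3.59% haemoglobin. At PND8 every null library had more Slfn14 than every wild-type library, with means of 1.49 and 2.92 CPM in wild type and null. That log2 difference of 0.96 ± 0.249 was not called (edgeR adjusted p = 0.142), and 7.88% of all genes were separated in that direction. The 12wk libraries had 4.03 to 12.2 CPM with at most 0.0797% haemoglobin. The part of blood cells in these levels was not tested. The related gene Slfnl1, on chromosome 4, stayed at or below 0.16 CPM in all libraries.

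Slfn5, a long form studied as a regulator of interferon responses, rose at both tested steps in both genotypes. In wild type it had 0.637, 0.728, 0.693 and 0.705 CPM at E13.5, 6.42, 3.52, 4.07 and 7.82 CPM at PND8, and 32.2, 35.0, 26.1 and 20.8 CPM at 12wk. The groups of successive steps did not overlap, and the rises were 7.53-fold (log2 2.91 ± 0.334, edgeR adjusted p = 4.1e-05) and 5.48-fold (log2 2.45 ± 0.287, adjusted p = 0.000598). In nulls it had 0.368, 0.35 and 1.17 CPM at E13.5, 6.05, 2.55 and 5.01 CPM at PND8, and 21.2, 21.8 and 54.6 CPM at 12wk. The null rises were 6.9-fold (adjusted p = 0.00366) and 7.7-fold (adjusted p = 0.00972) by edgeR. Without E13.5 null replicate 4 the first was 3.60 on the log2 scale against 2.79, and without 12wk null replicate 4 the second was 2.31 against 2.94. At E18.5 Slfn5 stood at 0.671 to 1.43 CPM in wild type and 0.6 to 1.32 CPM in nulls. Its genotype differences were -0.18 at E13.5, -0.28 at PND8 and 0.21 at 12wk on the log2 scale, with edgeR adjusted p from 0.764 to 0.99.

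Slfn2, a short form needed for the quiescence of T cells and monocytes, fell from the embryo to PND8 and rose to the adult. In wild type it had 1.87, 1.96, 2.85 and 3.08 CPM at E13.5, 0.849, 0.758, 0.808 and 0.83 CPM at PND8, and 6.6, 8.94, 8.11 and 7.08 CPM at 12wk. The groups were fully separated at both steps. It fell by 1.65 on the log2 scale (standard error 0.293, edgeR adjusted p = 0.000681) and then rose 9.92-fold (log2 3.31 ± 0.186, adjusted p = 4.8e-05). In nulls it had 2.88, 2.06 and 4.3 CPM at E13.5, 1.8, 0.469 and 0.899 CPM at PND8, and 4.25, 7.43 and 12.5 CPM at 12wk. The null fall of 1.6 on the log2 scale (edgeR adjusted p = 0.0327) had an adjusted p above the threshold in 4 of 6 fits that left out 1 library, up to 0.108, and was -2.20 without PND8 replicate 1. The null rise was 8.11-fold (edgeR adjusted p = 0.0121), with an adjusted p of 0.0513 without PND8 replicate 4 and a log2 value of 3.65 against 3.02 without PND8 replicate 1. At E18.5 it had 2.01 to 3.79 CPM in wild type and 1.52 to 3.12 CPM in nulls. By genotype Slfn2 differed by 0.3, 0.37 and 0.09 on the log2 scale at E13.5, PND8 and 12wk, with edgeR adjusted p from 0.726 to 0.988.

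Slfn1, the other short form, which slows thymocyte growth when overexpressed, had the lowest level per kilobase at PND8. It passed the filter on low counts at E18.5, at 12wk, in the fit of 3 ages and for the step from PND8 to 12wk, and not elsewhere. In wild type it had 0.102, 0.0541, 0.216 and 0.0268 CPM at PND8 and 0.889, 2.66, 0.95 and 1.13 CPM at 12wk, a rise of 3.85 ± 0.628 on the log2 scale (edgeR adjusted p = 0.00233) with no overlap. Without PND8 replicate 3 the log2 rise was 4.56. In nulls it had 0.346, 0.0293 and 0.0321 CPM at PND8 and 0.173, 0.428 and 1.84 CPM at 12wk. These groups overlapped, with a log2 difference of 2.58 ± 1.17 and an edgeR adjusted p of 0.144. The 12wk genotypes differed by -0.75 ± 0.794 on the log2 scale, with an adjusted p of 0.811 by edgeR.

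Slfn3, an intermediate form studied in T cells and in gut epithelium, was highest in the adult. In wild type it had 0.592, 0.896, 0.462 and 1.63 CPM at E13.5, 1.26, 1.0, 1.21 and 1.53 CPM at PND8, and 3.27, 4.42, 2.44 and 2.93 CPM at 12wk. The first step overlapped (log2 0.41 ± 0.404, edgeR adjusted p = 0.38), and the second was a separated rise of 1.45 ± 0.264 (adjusted p = 0.00371). In nulls it had 0.736, 0.545 and 0.585 CPM at E13.5, 1.94, 1.11 and 1.8 CPM at PND8, and 4.25, 4.76 and 5.33 CPM at 12wk. Both null steps were separated rises, of 1.32 ± 0.418 (edgeR adjusted p = 0.022) and 1.65 ± 0.31 (adjusted p = 0.00884) on the log2 scale. The first had an adjusted p above the threshold in 4 of 6 fits without 1 library, up to 0.0793. With all 29 samples in 1 fit, the 3 Slfn3 rises had edgeR adjusted p of 0.0558, 0.0515 and 0.0591.

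Slfn4, the other intermediate form, is known as an interferon-driven gene of myeloid cells. It had 0 reads in all 7 libraries of E13.5 and at most 0.338 CPM at E18.5. At PND8 wild-type ovaries had 0.917, 0.568, 1.97 and 0.482 CPM and null ovaries 1.99, 1.55 and 0.482 CPM. Set against a floor of 3 reads per E13.5 library, its PND8 means were at least 5.89-fold higher in wild type and at least 8.74-fold higher in nulls (edgeR adjusted p = 0.00134 and 0.00233). At 12wk wild-type ovaries had 3.24, 1.41, 0.697 and 4.03 CPM and null ovaries 1.13, 0.748 and 0.831 CPM. These overlap, and the log2 difference of -1.39 ± 0.621 had an edgeR adjusted p of 0.529. From PND8 to 12wk Slfn4 differed by 1.34 in wild type and -0.49 in nulls on the log2 scale, with adjusted p of 0.141 and 0.544 by edgeR. With the counts of Slfn4 added to Slfn3, the wild-type difference from E13.5 to PND8 was 1.24 with an edgeR adjusted p of 0.0236. For that sum the null rise was 2.19 at the first step and 1.03 at the second.

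The make-up of the family, as each gene's share of the summed CPM per kilobase of the 7 genes, differed most between PND8, where Slfn9 dominated, and 12wk, where it was shared among 3 genes. In wild-type ovaries, taken from the youngest age to the oldest, Slfn9 made up 62.8 ± 5.88%, 42.9 ± 10.4%, 84.6 ± 2.96% and 34.6 ± 8.22% of the family level (SD, n = 4 each). In nulls its shares were 63.8 ± 9.16%, 76.5 ± 5.65%, 86.9 ± 2.99% and 39.1 ± 10.2%. The E18.5 shares of 31.4% to 53.4% in wild type and 71.0% to 83.8% in nulls follow from the values that chose the set. Slfn2 was the second largest in the embryo, with 26.9% and 28.4% at E13.5 and 37.7% and 14.6% at E18.5 in wild type and null, and 3.53% and 3.21% at PND8. At 12wk Slfn2 (23.7% and 21.7%) and Slfn5 (23.2% and 22.8%) stood beside Slfn9. The summed family level was 5.43 ± 0.854 CPM per kilobase in wild type and 6.4 ± 0.949 in nulls at E13.5, and 4.71 ± 0.869 and 10.3 ± 1.32 at E18.5, where Slfn9 chose the set. It was 14.0 ± 2.12 and 18.8 ± 2.77 at PND8, and 19.5 ± 2.26 and 21.5 ± 6.89 at 12wk. Without division by length, which weighs the long genes more, the Slfn9 share in wild type and null was 81.3% and 83.0% at E13.5, then 65.6% and 89.3% in late embryos, 88.4% and 91.0% in pups (PND8), and 45.0% and 49.2% in adults. On that scale Slfn2 made up 9.82% and 10.5% at E13.5 and 8.64% and 7.72% at 12wk, and Slfn5 32.3% and 30.7% at 12wk, so the near-equal shares of Slfn2 and Slfn5 in adults hold only per kilobase.

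**Figure D4:**
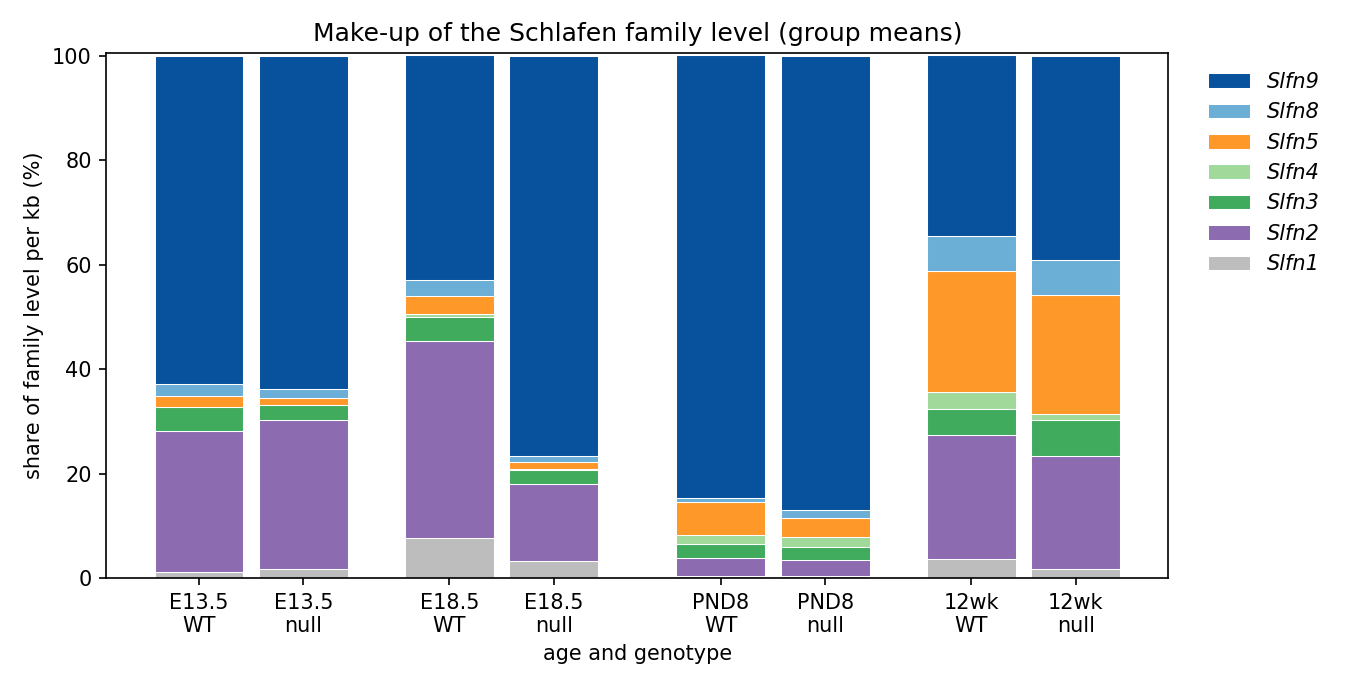
Mean share (%) of each Schlafen gene in the summed family level per kilobase of exon, by age and genotype (WT, wild type; null, Cdkn1b-null). Slfn9 makes up 84.6% and 86.9% at PND8 and 34.6% and 39.1% at 12wk, where Slfn2, Slfn5 and Slfn8 take larger shares than at PND8.

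Between the genotypes, no Schlafen gene passed the edgeR test at an adjusted p of 0.05 at the 3 ages that did not choose the set. At E13.5, 0 of 5 genes tested were called, where 0.00606% of all genes were called. Of the 5, 0 had an unadjusted p below 0.05 (3.49% of all genes) or separated groups (3.75% of all genes). At PND8, 0 of 6 were called, where 0.349% of all genes were called. Slfn8 and Slfn9 had an unadjusted p below 0.05 (2 of 6, 15% of all genes), and Slfn8 had separated groups (1 of 6, 14.5% of all genes in either direction). At 12wk, 0 of 7 were called, where 0.0115% of all genes were called and Cdkn1b itself was not (edgeR adjusted p = 0.211). Of the 7, 0 had an unadjusted p below 0.05 (9.63% of all genes) or separated groups (8.72% of all genes). DESeq2 called 0, 1 (Slfn9) and 0 of them at these ages, where it called 65 of 16508, 824 of 17785 and 326 of 17396 genes. The difference in genotype effect among the 3 ages was called for 0 of 7 genes by edgeR and by DESeq2, with edgeR adjusted p from 0.648 to 0.98, where 0.0146% of all genes were called, and 0 were below an unadjusted 0.05 (8.85% of all genes). At E18.5 Slfn9 alone of the 5 genes that passed the filter had separated groups. That contrast chose the set, so this separation follows from the choice and is no result. Of all genes there, 14.7% were separated in either direction and 4.99% were called.

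**Figure D5:**
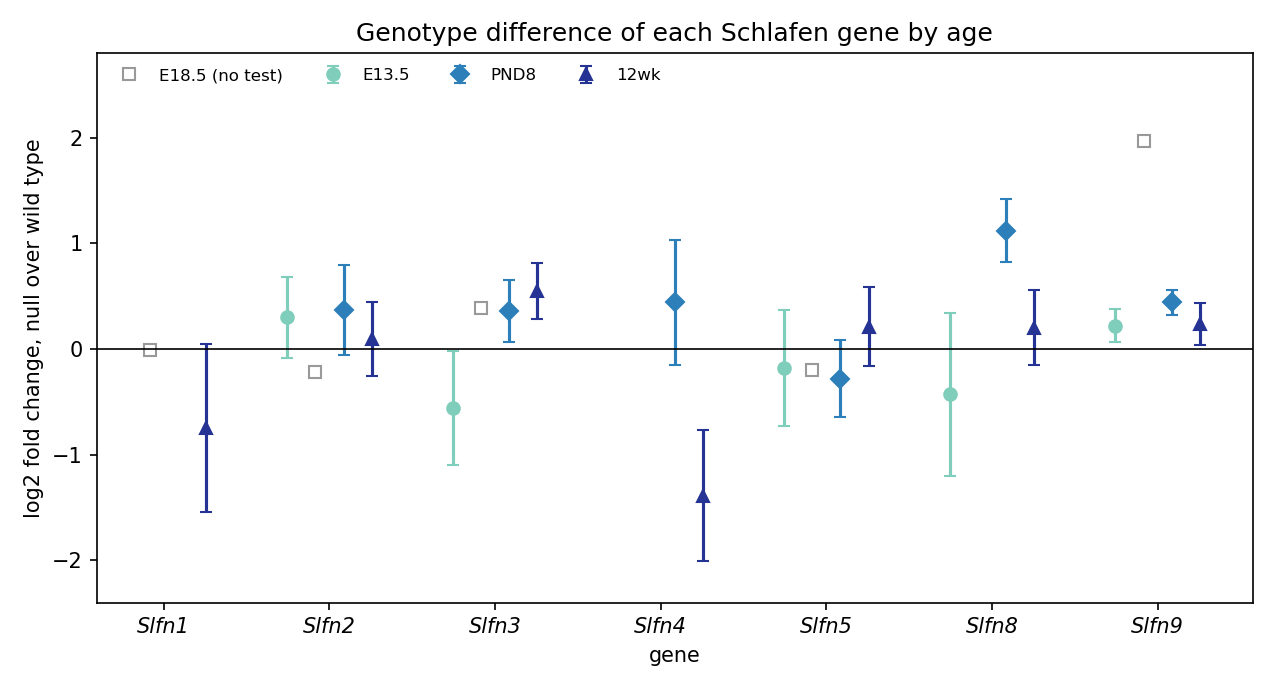
Log2 fold change, null over wild type, of each Schlafen gene that passed the filter, by age; bars are standard errors, and open squares mark E18.5, which chose the set and has no test. Slfn9 is at 1.97 at E18.5 and at 0.22 to 0.44 at the 3 tested ages, while Slfn8 is at 1.12 at PND8 and Slfn4 at -1.39 at 12wk.

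More members passed the test with age. From E13.5 to PND8 in wild type, 3 of 6 genes tested rose (Slfn4, Slfn5 and Slfn9) and Slfn2 fell, where 74% of all genes were called, 37.7% higher and 36.3% lower. In nulls 4 of 6 rose (Slfn3, Slfn4, Slfn5 and Slfn9) and Slfn2 fell, where 71.3% of all genes were called, 36.7% higher and 34.5% lower. The groups were separated for 4 of 6 genes in wild type and 6 of 6 in nulls, against 69.3% and 76.5% of all genes. The counts of calls in both genotypes are near the background. From PND8 to 12wk in wild type, 5 of 7 rose (Slfn1, Slfn2, Slfn3, Slfn5 and Slfn8) and Slfn9 fell, where 30.5% of all genes were called, 16.1% higher and 14.3% lower. In nulls 4 of 7 rose (Slfn2, Slfn3, Slfn5 and Slfn8) and Slfn9 fell, where 29.1% of all genes were called, 14.8% higher and 14.3% lower. Groups were separated for 6 of 7 genes in wild type and 5 of 7 in nulls, against 34.3% and 47.9% of all genes. Both steps of a genotype share its PND8 samples. Slfn9 was the 1 member with a called fall after PND8.

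A list of 54 interferon response genes, from receptors and kinases through transcription factors and sensors to effectors, gave the setting for a family known to be interferon-inducible. Between the genotypes edgeR called 0 of 50 genes at E13.5, 0 of 50 at PND8 and 0 of 54 at 12wk, with 4, 6 and 0 below an unadjusted 0.05 (3.49%, 15% and 9.63% of all genes) and 0 called by DESeq2 at each. At E18.5 edgeR called 1 of 51, Eif2ak2, a kinase that senses double-stranded RNA, at 41.6 ± 5.93 and 58.2 ± 1.78 CPM (adjusted p = 0.0419), where 4.99% of all genes were called. DESeq2 called 8 of the 51, of which 4 were higher and 4 lower, where it called 1685 of 16322 genes. At that age 12 of the 51 were below an unadjusted 0.05 (22.1% of all genes) and 8 had separated groups (14.7% of all genes). The list's median log2 difference at E18.5 was -0.05, against -0.04 over all genes tested. At E13.5 the list's median was 0.37, against -0.01 over all genes.

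From PND8 to 12wk 40 of 53 interferon response genes rose in wild type (16.1% of all genes) and 1 fell, with a median log2 change of 1.56 against -0.01 over all genes. In nulls 39 of 53 rose (14.8% of all genes) and 0 fell, with a median of 1.66 against -0.01. Oas2, an antiviral enzyme that makes oligoadenylates, went from 0.668 ± 0.166 to 6.84 ± 1.31 CPM in wild type (edgeR adjusted p = 7.69e-05), and Ifit3, which binds viral RNA complexes, from 0.605 ± 0.298 to 11.4 ± 4.5 CPM in nulls (adjusted p = 0.00205). Slfn2, Slfn3, Slfn5 and Slfn8 rose at this step in both genotypes, and Slfn9 fell. From E13.5 to PND8 the list was mixed, with 18 genes higher and 8 lower of 50 in wild type, and 14 higher and 16 lower of 51 in nulls, where 74% and 71.3% of all genes were called. Jak2, a kinase of cytokine receptors, rose from 10.9 ± 1.74 to 58.8 ± 4.53 CPM in wild type (edgeR adjusted p = 9.51e-07), while Ifitm3, a membrane protein that blocks virus entry, went from 64.1 ± 5.97 to 27.3 ± 4.7 CPM (adjusted p = 2.88e-05).

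Immune-cell markers moved at the same steps as Slfn2. The 21 markers summed to 95.4 to 161 CPM in wild type at E13.5, 35 to 58.2 CPM at PND8 and 303 to 390 CPM at 12wk, and to 93.2 to 291, 37.9 to 66.9 and 257 to 464 CPM in nulls. Of 14 markers tested from E13.5 to PND8 in wild type, 12 fell (36.3% of all genes) and 1 rose, and of 21 tested from PND8 to 12wk, 19 rose (16.1% of all genes). In nulls 10 of 14 fell (34.5% of all genes) and 1 rose, and then 14 of 18 rose (14.8% of all genes). Ptprc, the pan-leukocyte CD45, went from 1.39 to 20.5 CPM in wild type at the second step (edgeR adjusted p = 0.000456). Among the markers at 0 in a whole group, Ncr1, a natural killer cell receptor, was at 0 in all E13.5 and E18.5 groups, and Cd8a, a T cell coreceptor, in E18.5 nulls and PND8 wild type. The gene most like Slfn2 over the 29 libraries was the leukocyte marker Cd52 (Pearson r = 0.969), followed by Themis2 (0.949) and Fyb (0.945). The part of immune cells in the levels of Slfn2 and the other genes was not tested.

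Single adult libraries carried several Schlafen genes up together. Replicate 2 of 12wk wild type was the highest of its group for Slfn1, Slfn2, Slfn3, Slfn5 and Slfn8. It also had the highest interferon response sum, 3810 CPM against a group minimum of 1980, and the lowest immune-marker sum, 303 CPM. Replicate 4 of 12wk null was the highest of its group for Slfn1, Slfn2, Slfn3, Slfn5, Slfn8 and, by a narrow margin, Slfn9, with the highest sums of immune markers (464 CPM) and of endothelial markers (1200 CPM). The calls from PND8 to 12wk remained without either library: Slfn8 rose by 3.23 on the log2 scale in wild type without replicate 2 and by 2.04 in nulls without replicate 4.

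The other members also had their own nearest patterns. Slfn5 was most like Pdgfb, Aebp1 and Nr1d1 (Pearson r = 0.969 each), a platelet growth factor subunit, a connective-tissue protein and a clock receptor. Slfn8 was most like H2-Eb1 (0.918), H2-Aa (0.916) and Grin2c (0.906), where the first pair encode MHC class II chains of antigen-presenting cells. Slfn3 was most like Erg (0.875), Lrrc8c (0.861) and Fgd5 (0.861), where Erg and Fgd5 are known from endothelium. Among members the highest correlations over the 29 libraries were 0.85 for Slfn5 and Slfn8 and 0.83 for Slfn4 and Slfn5. Slfn9 with its neighbour Slfn8 gave 0.28 and with Slfn2 gave -0.33.

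Genes that flank the cluster were followed in the same comparisons. Of 41 annotated neighbours within 250 kb of the outermost members, 16 to 20 were tested. Between the genotypes edgeR called 0 at E13.5, PND8 and 12wk, with 0, 3 and 0 below an unadjusted 0.05 (3.49%, 15% and 9.63% of all genes). DESeq2 called 0, 1 and 0 of them, where it called 65, 824 and 326 genes over the whole table. At E18.5 edgeR called 1 of 17, Ap2b1, a clathrin adaptor subunit, at 48.7 ± 4.18 and 64.1 ± 2.61 CPM (adjusted p = 0.0467), and 4 were below an unadjusted 0.05, where 4.99% and 22.1% of all genes were. From E13.5 to PND8 in wild type, 8 of 17 rose and 4 fell, near the background of 37.7% and 36.3% of all genes, with Ap2b1 from 70.9 to 251 CPM (edgeR adjusted p = 5.07e-07) and the DNA repair gene Rad51d from 15.8 to 33.8 CPM (adjusted p = 3.87e-05). From PND8 to 12wk in wild type 2 of 19 rose (16.1% of all genes), Slfn14 and AI662270, and 1 fell (14.3%), the ribosome-assembly gene Nle1. In nulls at that step 3 of 20 rose (14.8% of all genes), AI662270, Slfn14 and Gm11427, and the DNA ligase gene Lig3 fell. Gm11427 shares sequence with Slfn1, Slfn3 and Slfn4, so reads that fit both cannot be assigned to 1 gene.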

How the data were processed

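Bulk RNA sequencing of dissociated ovaries gave 1 column of expected counts per sample (29 samples). Per the file headers, the authors deposited RSEM expected counts per Ensembl gene, which are estimated counts that need not be whole. The submitters' processing notes name Trim Galore, STAR 2.5.2, RSEM 1.3.0 and FastQC 0.11.5; the genome build, the annotation release and strandedness are not given in the sources used here. No column was left out (0 unused). Of 51912 identifiers, 51633 matched a GENCODE symbol, and 31.36% of non-zero values were not whole.

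Sample titles gave the group and replicate number. Counts were rounded and tested with edgeR 4.0.16 (R 4.3.3): TMM scaling, filterByExpr with a minimum count of 10, robust quasi-likelihood F tests, and Benjamini-Hochberg adjustment over all genes tested, with a threshold of 0.05. Each comparison used only its own groups, and the interaction used 3 ages without E18.5. Alternatives were DESeq2 1.42.0, its size factors in edgeR, no filter, the replicate number as a block, all 29 samples in 1 fit, each replicate left out, and near-identical genes summed. CPM, shares and shared stretches are descriptions. The edgeR procedure was tested on simulated data. Library totals of 14095553 to 48213126 counts set the precision, and a floor of 3 counts was used for groups at 0. In 39 replicate pairs within groups, chi-square per degree of freedom of the counts was 13 to 285, so all differed by more than sampling noise.

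The members and lists were chosen with earlier results of these data known. Named genes were the 7 members, other Slfn genes, Cdkn1b, up to 4 called genes with the smallest p of the interferon list and of the neighbours per comparison, the 5 genes most like Slfn9 and the 3 most like each other member with a mean of at least 1 CPM, and immune markers called or at 0; the dividing-cell genes named by value were chosen after their values were seen. Lists not described further (endothelium, erythroid, ovary surface) are given by their sums in the closing section.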

Additional observations from a re-analysis of the deposited data

Results flagged for a closer look

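In 35 groups of 4 samples of the Schlafen genes, 4 had a sample far from the other 3, by the gap to its neighbour over the group's range; chance gives about 1 in 20. Slfn9 in PND8 wild type stood at 89.13 CPM in replicate 3, against 64.58 to 64.95 CPM in the others. Slfn8 in PND8 wild type stood at 0.5432 CPM in replicate 1, against 0.5087 to 0.5142 CPM. That gap is small and rests on estimated counts of 15.5 in replicate 1 and 18.87 to 19.38 in the others. Slfn8 in E18.5 wild type stood at 1.29 CPM in replicate 1, against 0.3375 to 0.4605 CPM. Slfn1 in 12wk wild type stood at 2.66 CPM in replicate 2, against 0.8894 to 1.133 CPM.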

How the results depend on the processing

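Counts of genes called over the whole table moved more than the members did. The genotype count was 1 at E13.5, 65 with DESeq2 and 59 with all 29 samples in 1 fit. At E18.5 it was 814, and 1685 with DESeq2, of which 800 were shared. At PND8 it was 62, 258 without a filter, 824 with DESeq2 and 0 with all samples in 1 fit. At 12wk it was 2, 12 without a filter, 326 with DESeq2 and 68 with all samples in 1 fit. The interaction count was 3, and 207 with DESeq2. Leaving out 1 replicate gave 0 to 1 at E13.5, 246 to 1372 at E18.5, 0 to 147 at PND8, 0 to 3 at 12wk, 0 to 20 for the interaction and 2642 to 5129 for the null step from PND8 to 12wk. The cause of these moves was not tested.

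Whether same-numbered samples pair was not settled. The correlation of their deviations was -0.10 to 0.17 at E13.5, 0.09 to 0.24 at E18.5, -0.03 to 0.21 at PND8 and 0.04 to 0.19 at 12wk. Against differently numbered samples of the other genotype, PND8 replicates 1 and 4 each correlated best with their own number in both directions. E13.5 replicates 3 and 4 did so in neither direction. With so few samples and such mixed matches, these correlations cannot decide it. Fitted with a replicate block, the genotype count was 7 at PND8 and 0 at 12wk, and the interaction count was 13. Under the block Slfn8 from E13.5 to PND8 in wild type had a log2 change of 0.061, and it ranged from -0.488 to 0.422 when 1 replicate was left out.

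Member values in tested comparisons turned sign only where none was called. When 1 replicate was left out, the log2 genotype difference at E13.5 ranged from -0.96 to 0.132 for Slfn5 and from -0.005 to 0.536 for Slfn2. At PND8 it ranged from -0.545 to 0.003 for Slfn5 and from -0.261 to 0.724 for Slfn2. At 12wk it ranged from -0.425 to 0.398 for Slfn2, -0.435 to 0.451 for Slfn5 and -0.282 to 0.394 for Slfn8, where all 3 were lowest without null replicate 4. With all samples in 1 fit Slfn8 was called in nulls from E13.5 to PND8 (1.41, edgeR adjusted p = 0.0325). Of 540 member values under alternatives in tested comparisons of 2 groups, 513 kept direction and side of the threshold, 13 lost and 4 gained a call, and 10 turned sign. Of 67 at E18.5, which carry no test, 6 turned sign. Slfn1 went from -0.013 to as much as 0.578, Slfn3 from 0.393 to -0.131 without null replicate 4 and Slfn5 from -0.198 to 0.007 without wild-type replicate 2, while Slfn9 stayed within 1.871 to 2.201 when 1 replicate was left out. In the interaction 178 of 178 values remained above the threshold. Depth limits what can be seen for Slfn8 and Slfn5 in the embryo, whose group means were 8.85 to 12.6 and 12.2 to 21.2 reads.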

Other observations

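Summed levels of the other marker lists were as follows. Endothelial genes summed to 136 to 368 CPM in embryonic libraries, 214 to 426 CPM at PND8 and 409 to 552 CPM in 12wk wild type, with a maximum of 1200 CPM in 12wk nulls. Erythroid genes summed to 1580 to 207000 CPM in embryonic libraries, 7.85 to 1850 CPM at PND8 and 87.5 to 812 CPM at 12wk. Ovary surface genes summed to 164 to 1030 CPM in embryonic libraries, 40.9 to 245 CPM at PND8 and 3.65 to 86.5 CPM at 12wk.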
